A study of Mus musculus with 24 samples.

Results

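Integrin subunits and the adhesion molecule Icam1 were followed in mouse bone marrow-derived macrophages (BMDMs), a primary culture in which marrow precursors are turned into macrophages. The members were the rows of the normalised expression table whose gene name was Itgam, Itgax, Itgal, Itgb2, Itga4, Itga5, Itgav, Itgb1, Itgb3 or Icam1. All 10 genes were found, on 11 of the 24273 rows of the table. The eleventh row also carried the name Itgam but has the identifier ENSMUSG00000108596, which GENCODE calls Gm49368. It was kept apart, and the counts below are over the 10 genes. All 10 passed the filter on low values and were among the 13901 genes tested.

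The study asked what Fos, a subunit of the transcription factor AP-1, does in the response of macrophages to bacterial lipopolysaccharide (LPS, a ligand of TLR4). Control libraries were labelled LysM-Cre, and the others were labelled FosKO, in which a floxed Fos gene was meant to be deleted by Cre. LysM-Cre is a Cre recombinase placed at the lysozyme locus Lyz2, so it acts in myeloid cells, and by the study's description all groups carried it. The series' design gives the controls the driver alone, whereas the study's text also gives them a floxed Fos allele beside a wild-type allele, and the values cannot settle this. The mice were C57BL/6, and their age is not given in the sources used here for these cultures. Marrow cells were grown for 7 days in L-cell conditioned medium and kept overnight in 1% serum. They were then left without LPS (0 h) or given 100 ng/ml of it for 0.5, 1 or 2 h, which made 8 groups of 3 libraries. The study's methods call them biological replicates, but neither these nor the labels say that the 3 came from separate animals or cultures, so p-values measure the spread between libraries.

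Integrins are adhesion receptors made of an alpha and a beta subunit, and the pair decides which ligand is bound. The beta 2 integrins are found on leukocytes. They pair Itgb2 with Itgal (LFA-1), Itgam (Mac-1 or CD11b) or Itgax (CD11c) and bind ICAMs and complement fragments. The beta 1 integrins pair Itgb1 with Itga4 (VLA-4, a receptor for VCAM-1 and fibronectin) or Itga5 (the fibronectin receptor), and Itgav with Itgb3 forms the vitronectin receptor. Icam1 is the immunoglobulin-type ligand of LFA-1 and Mac-1, and is a known target of NF-kB in inflammation.

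All values are the authors' normalised log2 values, on which a difference of 1 is a doubling. Read totals cannot be had from these values, and every error given is the spread over libraries. The transcript of Fos went against the label at 3 of the 4 times. Its means under the FosKO label were 12.60, 12.75, 12.78 and 12.80 after 0, 0.5, 1 and 2 h, and under the LysM-Cre label 11.11, 13.52, 11.15 and 9.52, so that at 0.5 h it was lower under the FosKO label. A level per gene does not separate the floxed part from the rest of the transcript, and the groups are therefore called by their labels throughout. Lyz2, the locus of the driver, had group means of 10.94 to 11.33 under the LysM-Cre label and of 16.10 to 16.32 under the FosKO label. Whether the genotype labels are right, and whether all groups carried the driver, cannot be told from these values, and every direction given between genotypes rests on the labels. The 18S ribosomal RNA split the libraries into 5 with values of 16.65 to 17.00 (LysM-Cre 0.5 h replicate 3, LysM-Cre 1 h replicates 2 and 3, FosKO 0.5 h replicate 1 and FosKO 1 h replicate 1) and 19 with values of 18.57 to 19.39. The genotype differences at 0.5 and 1 h are therefore also given within each set. The 8 macrophage markers checked were all expressed (Csf1r at 14.95 or above and Cd68 at 15.05 or above in every library), and none of the 8 lymphocyte markers listed passed the filter. In a bulk library, fewer cells of a type and less RNA per cell cannot be told apart.

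Positions are from GENCODE vM21 on mm10 (GRCm38), and each value is a sum over the whole protein-coding gene, so exons were not resolved. Itgal (ENSMUSG00000030830, chr7:127296260-127335138, plus strand), Itgam (ENSMUSG00000030786, chr7:128062640-128118491, plus strand) and Itgax (ENSMUSG00000030789, chr7:128129547-128150657, plus strand) lie near each other on chromosome 7. Gm49368 (chr7:128062683-128128160, plus strand) overlaps Itgam and ends before Itgax, so reads of Itgam and Gm49368 may be split between them. Its values were 5.06 to 6.17, against 14.16 to 14.55 for Itgam. The beta subunits are Itgb2 (ENSMUSG00000000290, chr10:77530252-77565708, plus strand), Itgb1 (ENSMUSG00000025809, chr8:128685654-128733200, plus strand) and Itgb3 (ENSMUSG00000020689, chr11:104608000-104670476, plus strand). The remaining alpha subunits are Itga4 (ENSMUSG00000027009, chr2:79255426-79333123, plus strand), Itgav (ENSMUSG00000027087, chr2:83724397-83806916, plus strand) and Itga5 (ENSMUSG00000000555, chr15:103344286-103366763, minus strand). Icam1 (ENSMUSG00000037405) is at chr9:21015985-21028817 on the plus strand.

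RefSeq promoter sequences on GRCm38.p6 were matched by symbol for 7 of the 10 genes, all but Itgal, Itgb2 and Itgb3. For Icam1 and Itga5, unlike the others, the bases after the RefSeq start were not found near the start of a GENCODE transcript. The Icam1 window ends at 21015939, before the GENCODE start of the gene at 21015985. The 250 bases before the RefSeq start were searched on both strands for the AP-1 motif TGANTCA, the cyclic AMP response element TGACGTCA, the PU.1 core GAGGAAG and the consensus motifs of NF-kB and of the interferon-stimulated response element. The AP-1 motif was in 6.75% of all 32851 promoters of this length and, among the 7, in Itgax alone, where it begins 56 bases before the start. The PU.1 core was in 10.6% of all promoters. It was found in Itgam, 84 bases before the start, and on the other strand in Itgav, 8 bases before the start. The cyclic AMP and interferon response elements, in 1.55% and 2.98% of all promoters, and the NF-kB consensus, in 9.55%, were in none of the 7. The motifs do not overlap each other in these windows. A match is only a description of letters, and no match says only that these letters are not in this window. The 3 promoters that held a motif are shown 5′ to 3′ with the motif in capitals, together with that of Icam1, the member with the largest LPS response, which held none. They are Itgax at chr7:128129300-128129549 (plus strand), Itgam at chr7:128062390-128062639 (plus strand), Itgav at chr2:83724147-83724396 (plus strand) and Icam1 at chr9:21015690-21015939 (plus strand).
Itgax: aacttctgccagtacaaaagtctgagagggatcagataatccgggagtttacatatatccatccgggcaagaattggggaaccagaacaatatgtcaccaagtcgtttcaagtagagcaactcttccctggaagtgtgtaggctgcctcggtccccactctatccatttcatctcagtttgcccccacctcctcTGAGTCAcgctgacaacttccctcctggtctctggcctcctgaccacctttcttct
Itgam: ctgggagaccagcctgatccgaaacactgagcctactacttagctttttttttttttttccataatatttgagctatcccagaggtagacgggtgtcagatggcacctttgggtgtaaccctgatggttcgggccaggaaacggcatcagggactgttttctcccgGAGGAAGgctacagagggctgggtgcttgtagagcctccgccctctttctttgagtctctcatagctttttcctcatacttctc
Itgav: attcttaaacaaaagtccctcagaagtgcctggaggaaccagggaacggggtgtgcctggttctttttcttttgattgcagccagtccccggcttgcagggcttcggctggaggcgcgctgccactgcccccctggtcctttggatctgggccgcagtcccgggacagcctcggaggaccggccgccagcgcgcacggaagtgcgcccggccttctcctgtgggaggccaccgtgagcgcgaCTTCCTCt
Icam1: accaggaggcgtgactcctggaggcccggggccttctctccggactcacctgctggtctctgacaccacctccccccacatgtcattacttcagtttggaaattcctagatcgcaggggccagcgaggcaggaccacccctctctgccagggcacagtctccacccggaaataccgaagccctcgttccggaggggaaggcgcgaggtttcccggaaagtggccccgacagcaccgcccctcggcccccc

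Before LPS the levels spanned a wide range. Per kb of exon, the LysM-Cre libraries had the common leukocyte beta subunit Itgb2 highest, at a log2 level of 13.15 ± 0.03 (SD, n = 3). It was followed by Itgb1 at 12.58 ± 0.02 and Itgam at 12.12 ± 0.04. Itga5 (10.50 ± 0.02) and Icam1 (10.48 ± 0.03) overlapped over their libraries and were not separated in the order. Then came Itgax (9.42 ± 0.07), Itga4 (9.05 ± 0.02) and Itgav (8.88 ± 0.05), each with its libraries apart from those of the next. Their order rests on the exon lengths used, such as 4333 bases for Itgax and 9767 for Itga4. Other lengths were not tried. Itgb3 (5.83 ± 0.07) and Itgal (5.09 ± 0.16) were lowest. After 2 h of LPS in LysM-Cre, Icam1 headed the order at 14.27 ± 0.04 per kb, Itgav (11.09 ± 0.04) and Itga4 (10.40 ± 0.02) were above Itgax (9.53 ± 0.05), and Itgal (7.21 ± 0.05) was above Itgb3 (5.47 ± 0.23). Under the FosKO label at 0 h, Itgal (6.17 ± 0.25) overlapped Itgb3 (6.27 ± 0.13), and Itga4 (9.22 ± 0.20) overlapped Itgax (9.17 ± 0.14).

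**Figure D1:**
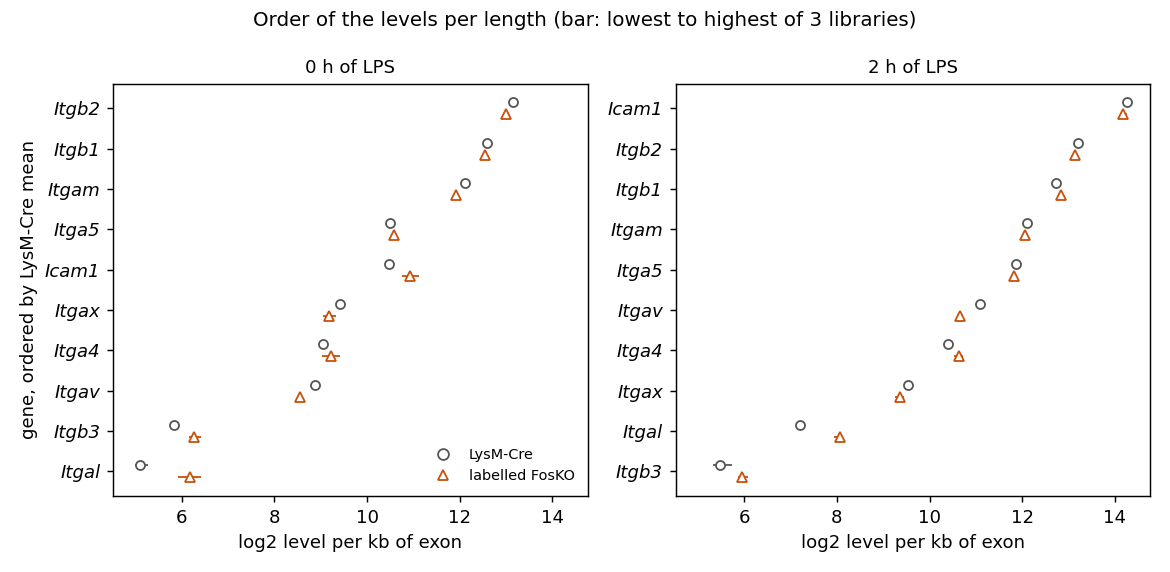
Log2 level per kb of exon (x axis) of each gene (y axis, ordered by the LysM-Cre mean) at 0 h and 2 h of LPS, with points for the mean of 3 libraries and bars from the lowest to the highest library. Icam1 moves from 10.48, level with Itga5, to the top at 14.27 in LysM-Cre, while Itgb2, Itgb1 and Itgam keep their order.

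The genotype comparison asked which adhesion genes differed between the labelled genotypes at each time. Itgal, a subunit of LFA-1, was 1.80- to 2.46-fold higher and Itgav, of the vitronectin receptor, 1.25- to 1.39-fold lower under the FosKO label than in LysM-Cre over the 4 times. The leukocyte subunits Itgam, Itgax and Itgb2 were lower by smaller amounts at 0, 0.5 and 1 h. At 0 h, 3 members were higher and 4 lower (limma, adjusted p under 0.05), beside 19.5% and 15.9% of all tested genes. At 0.5 h, 2 were higher and 4 lower, beside 21.2% and 19.7%. At 1 h, 2 were higher and 5 lower, beside 18% and 15.9%. At 2 h, 4 were higher and 1 was lower, beside 24.4% and 20.3%. Quantile normalisation gave other counts. Without LPS it left 3 members higher with 5 lower, beside 16.4% and 19.8% of all tested genes under the same scaling. After 0.5 h it left 3 with 6 (19% and 22.7%), after 1 h 2 with 7 (15% and 20%) and after 2 h 2 with 6 (18.7% and 24.7%). At this last time Itga4 and Itgb1 were no longer called, and Itgam, Itgax, Itgb2, Itga5 and Icam1 were called lower beside Itgav. The median difference of the members was 0.03, -0.03, -0.10 and -0.05 at 0, 0.5, 1 and 2 h, and that of all tested genes was within 0.004 of 0. Over all genes called, the share of higher was 55.1%, 51.9%, 53.1% and 54.6% with the times taken in order, and quantile normalisation made it 45.3%, 45.6%, 42.8% and 43.0%.

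**Figure D2:**
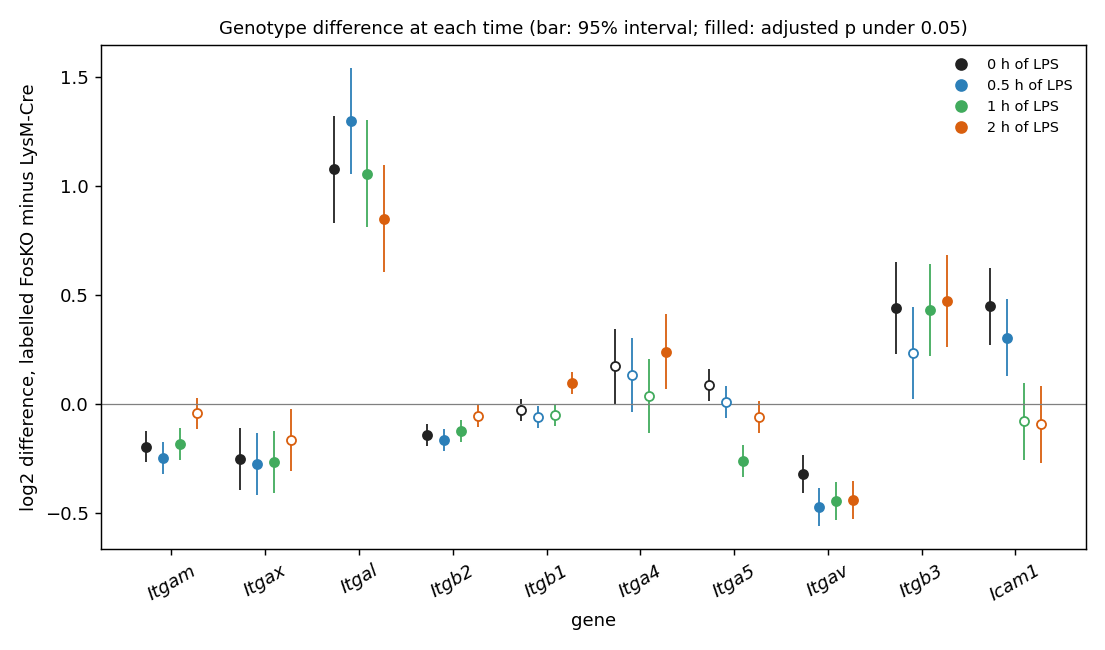
Log2 difference between the libraries labelled FosKO and LysM-Cre (y axis) for each gene (x axis) at 4 times, with 95% intervals of the limma fit and filled points where the adjusted p was under 0.05. Itgal stands between 0.85 and 1.30, Itgav between -0.32 and -0.47, and Itgb1 close to 0.

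The LPS comparisons asked which of these genes responded within 2 h. Icam1 rose at every time and in both genotypes, Itga5 likewise by a smaller amount, Itgav and Itga4 from 1 h on, and Itgal at 2 h only, while Itgb3 fell at 2 h. In LysM-Cre, 2 members rose and 0 fell at 0.5 h, beside 5.09% and 2.15% of all tested genes, and 6 rose and 0 fell at 1 h, beside 19.2% and 16.5%. At 2 h, 6 rose and 1 fell in LysM-Cre, beside 30.56% and 30.21%. In the libraries labelled FosKO, 2 rose and 0 fell at 0.5 h (4.45% and 1.47%), 6 rose and 0 fell at 1 h (17.6% and 15%), and 9 rose and 1 fell at 2 h (32.59% and 29.5%). The counts of the small changes depended on the scaling. Under quantile normalisation, 2 members rose and 1 fell at 0.5 h in LysM-Cre (4.38% and 4.69% of all tested genes under it), 4 rose and 3 fell at 1 h (14.7% and 24.4%), and 5 rose and 4 fell at 2 h (24.2% and 36.34%). For FosKO the counts were then 2 and 3 (3.89% and 3.81%), 3 and 3 (12.7% and 23.2%), and 5 and 4 (23.8% and 36.92%). The members called lower at 1 and 2 h in either genotype under it were Itgam, Itgb2 and Itgb1, with Itgb3 at 2 h. The median response of the members at 2 h was 0.75 in each genotype, and that of all tested genes was -0.02 in LysM-Cre and 0.005 in FosKO. With 0.5, 1 and 2 h taken in order, the share of higher among called genes in LysM-Cre was 70.3%, 53.8% and 50.3%, and under quantile normalisation 48.3%, 37.6% and 40.0%. For FosKO it was 75.2%, 54.0% and 52.5%, and 50.5%, 35.3% and 39.2%. The comparisons of a genotype share its 0 h libraries.

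**Figure D3:**
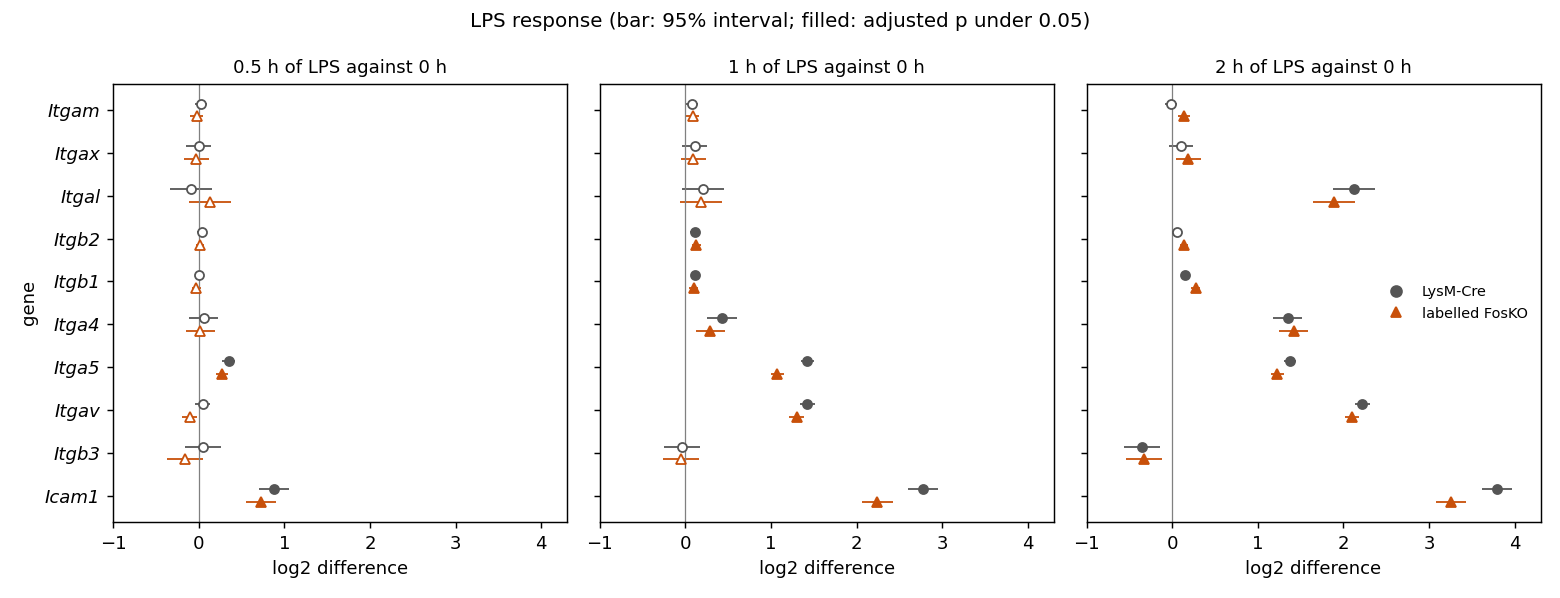
Log2 difference from 0 h (x axis) after 0.5, 1 and 2 h of LPS for each gene (y axis), with 95% intervals of the limma fit and filled points where the adjusted p was under 0.05. At 2 h Icam1 reaches 3.80 in LysM-Cre and 3.25 under the FosKO label, and Itgb3 is the member below 0 at 2 h in both.

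The difference in the LPS response between genotypes was called by limma for 0 of 10 members at 0.5 h, where Itgav was the 1 member whose p before adjustment was under 0.05, beside 0.115% of all tested genes called in either direction. It was called for 2 members at 1 h, beside 1.22%, and for 3 at 2 h, 1 of them lower and 2 higher, beside 15%. Under quantile normalisation 3 were called at 2 h, all lower (Icam1, Itga5 and Itgav), beside 5.76% of all tested genes higher and 8.65% lower under it. The share of higher among genes called at 2 h was 48.5%, and it became 59.1% under median centring and 40.0% under quantile normalisation. At 1 h it was 40.2%, and 65.6% among the high 18S libraries.

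**Figure D4:**
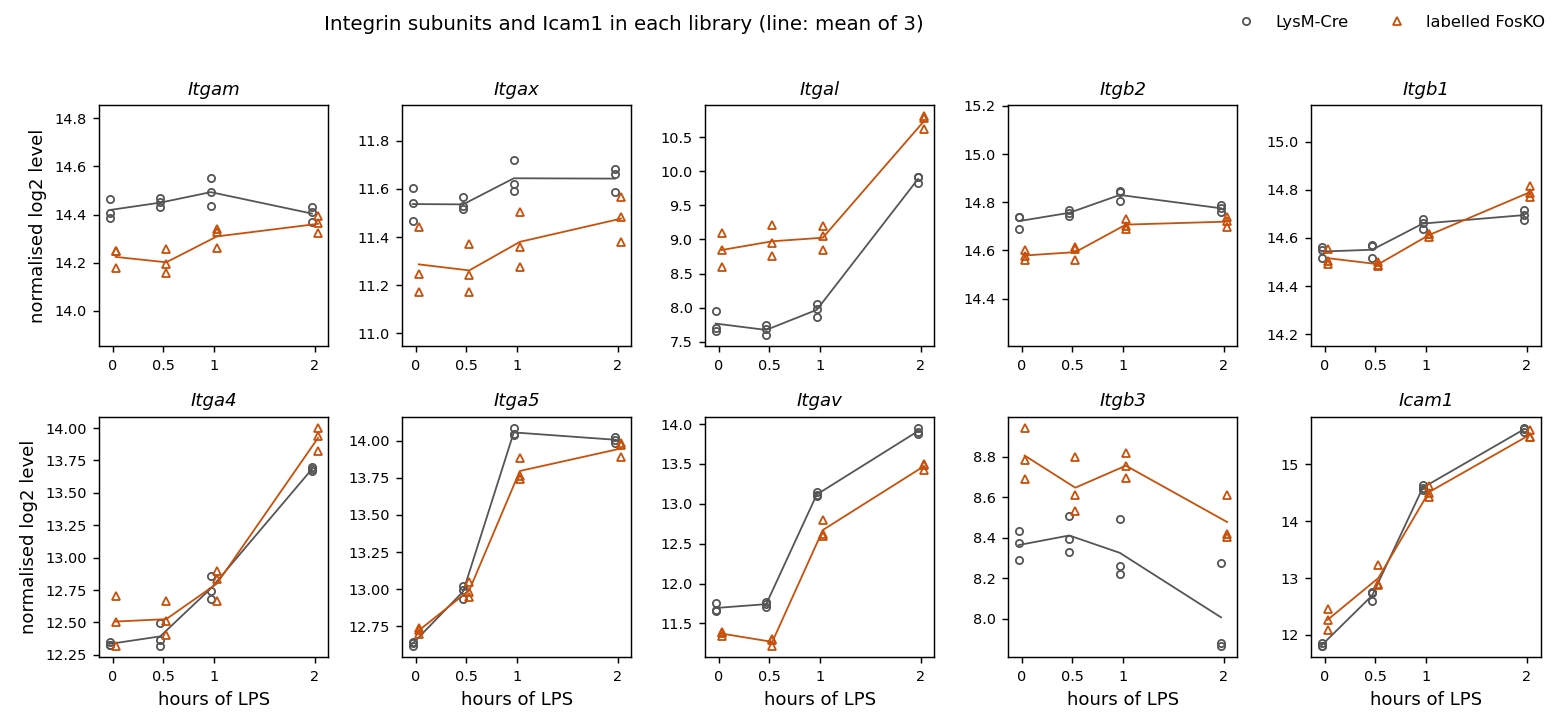
Normalised log2 level (y axis, each panel its own range) in every library against hours of LPS (x axis), with lines through the mean of 3 libraries. The genotypes do not overlap for Itgal, Itgav, Itgax, Itgb2 and Itgb3 at any of the 4 times, whereas for Icam1 they overlap at 1 and 2 h. The share of all tested genes without overlap is not given here.

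Among the leukocyte integrins, Itgal, the alpha subunit of LFA-1, had the largest genotype difference of the members. In LysM-Cre the libraries were at 7.95, 7.66 and 7.70 at 0 h, at 7.59, 7.68 and 7.74 at 0.5 h, at 8.06, 7.87 and 7.98 at 1 h and at 9.83, 9.91 and 9.91 at 2 h. In the libraries labelled FosKO they were at 8.60, 8.85 and 9.09, at 8.94, 8.76 and 9.21, at 8.84, 9.04 and 9.19, and at 10.62, 10.78 and 10.80. Every FosKO library was above every LysM-Cre library of its time, and within each genotype the 2 h libraries were above all earlier ones. Over the 4 times in order, the genotype difference was 1.08, 1.30, 1.06 and 0.85 (SE 0.12), with adjusted p of 5e-07, 3.13e-08, 6.19e-07 and 5.43e-06 (limma), and each was called in all 34 fits run. It was 1.35 and 1.20 within the high and low 18S sets at 0.5 h, and 1.06 and 0.92 at 1 h. LPS raised Itgal by 4.34-fold at 2 h in LysM-Cre (log2 difference 2.12, 95% interval 1.87 to 2.36) and by 3.71-fold in FosKO (1.89, 1.65 to 2.13). At 1 h the responses were 0.20 and 0.18 and were not called. The difference between the 2 h responses was -0.23 (95% interval -0.57 to 0.12) and was not called.

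Itgam, the alpha subunit of Mac-1 and a marker of myeloid cells, had a small genotype difference, and its response to LPS depended on the scaling. At 0 h its libraries were at 14.46, 14.41 and 14.38 in LysM-Cre and at 14.25, 14.18 and 14.25 in FosKO, and at 2 h they were at 14.43, 14.41 and 14.37 and at 14.40, 14.37 and 14.32. The genotypes were apart at 0, 0.5 and 1 h and overlapped at 2 h. The difference was -0.19, -0.25, -0.18 and -0.04 at 0, 0.5, 1 and 2 h (SE 0.03), with limma adjusted p of 0.000168, 8.44e-06, 0.000308 and 0.353. It was -0.28 and -0.17 within the high and low 18S sets at 0.5 h, and -0.25 and -0.14 at 1 h. Under quantile normalisation the 2 h difference was -0.23 (adjusted p 0.000169). In LysM-Cre no LPS time was called, with differences of 0.03, 0.07 and -0.01, but under quantile normalisation the 1 and 2 h differences were -0.21 and -0.49 (adjusted p 0.00062 and 3.38e-09). The 1 h difference was instead called higher under median centring (0.10, 0.0385), with the replicate block within genotype (0.07, 0.0265) and without LysM-Cre 1 h replicate 3 (0.10, 0.043). In FosKO the 2 h difference was 0.14 (95% interval 0.06 to 0.21) but -0.39 under quantile normalisation. The Gm49368 row, whose libraries overlapped between genotypes at every time, was called in no comparison.

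Itgb2, the beta subunit shared by the leukocyte integrins, moved in the same direction as Itgam between genotypes. At 0 h its libraries were at 14.74, 14.74 and 14.69 in LysM-Cre and at 14.56, 14.58 and 14.60 in FosKO. They were at 14.78, 14.79 and 14.76 and at 14.70, 14.74 and 14.72 at 2 h, and the groups did not overlap at any time. The difference was -0.14, -0.16 and -0.12 at 0, 0.5 and 1 h (SE 0.02), with limma adjusted p of 7.98e-05, 1.26e-05 and 0.000372, and -0.06 (0.0655) at 2 h, which was -0.26 (3.15e-05) under quantile normalisation. It was -0.18 and -0.13 within the high and low 18S sets at 0.5 h, and -0.12 and -0.14 at 1 h. After LPS, Itgb2 was higher by 0.11 at 1 h in LysM-Cre and by 0.13 and 0.14 at 1 and 2 h in FosKO, but each of these was below 0 under quantile normalisation. With only the groups compared in the fit, the FosKO response at 1 h was not called (adjusted p 0.0539).

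Itgax encodes CD11c and is used as a marker of dendritic cells and of some macrophages. In LysM-Cre its libraries were at 11.60, 11.54 and 11.46 at 0 h, at 11.53, 11.57 and 11.51 at 0.5 h, at 11.72, 11.62 and 11.59 at 1 h and at 11.66, 11.68 and 11.59 at 2 h. In FosKO they were at 11.17, 11.25 and 11.44, at 11.17, 11.24 and 11.37, at 11.28, 11.36 and 11.51 and at 11.38, 11.48 and 11.57. All FosKO libraries were below those of LysM-Cre of the same time, with FosKO replicate 3 the nearest each time. The difference was -0.25, -0.27 and -0.26 at 0, 0.5 and 1 h (SE 0.07), with limma adjusted p of 0.00643, 0.00265 and 0.00454, and -0.17 at 2 h (0.0528), which was called in 14 of 34 fits and was -0.27 (0.000969) under quantile normalisation. It was -0.24 and -0.34 within the high and low 18S sets at 0.5 h, and -0.29 and -0.33 at 1 h. LPS at 2 h gave 0.11 in LysM-Cre, which was not called (adjusted p 0.189) except with the replicate block within genotype (0.00255) and with only the groups compared in the fit (0.0298). It gave 0.19 in FosKO, which was called (0.0197), and the difference between these responses was 0.08 and not called (0.641). The FosKO response was -0.06 and not called under quantile normalisation (0.376). It was also not called with only the groups compared in the fit (0.0531), without FosKO 0 h replicate 1 (0.13, 0.123), without FosKO 0 h replicate 2 (0.17, 0.0656) or without FosKO 2 h replicate 3 (0.14, 0.104).

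Markers of other leukocytes were measured beside these genes. The linear levels of the neutrophil list, of which 4 of 9 genes were tested, summed to 80.4 to 172.8 in LysM-Cre and to 55.5 to 89.2 in FosKO, and its defining member Ly6g was at -2.20 or below in every library. The 4 tested were S100a8 (4.09 to 5.41), S100a9 (3.85 to 5.82), Ltf (3.05 to 4.75) and Ngp (3.46 to 5.49). The dendritic cell list, with 4 of 7 genes tested, summed to 44.4 to 140.1 and to 44.6 to 107.2, with Flt3 at 1.82 or below. Those tested were Zbtb46 (3.40 to 6.03), Xcr1 (3.65 to 5.76), Clec9a (1.83 to 2.54) and Ccr7 (2.87 to 4.03). The macrophage list summed to 126100 to 154600 and to 126600 to 167700. The part of these cells in the differences of Itgam, Itgb2 and Itgax was not tested.

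Among the beta 1 integrins, Itgb1, the beta subunit common to the fibronectin and VCAM-1 receptors, was among the steadiest members, with values of 14.48 to 14.82 over all 24 libraries. Its genotype difference was -0.03, -0.06 and -0.05 at 0, 0.5 and 1 h, none of them called, and 0.10 at 2 h (limma adjusted p 0.00297). Under quantile normalisation these were -0.15, -0.18 and -0.15, all called lower (0.000112, 1.15e-05 and 0.000194), and -0.06, not called (0.0782). Both 18S sets gave values below 0 before quantile normalisation, -0.05 (high) and -0.08 (low) at 0.5 h, then -0.03 and -0.05 at 1 h. Its LPS response at 2 h was 0.15 in LysM-Cre and 0.27 in FosKO, and at 1 h 0.12 and 0.10. All 4 were called, and all 4 were below 0 under quantile normalisation. The 1 h responses were lost in LysM-Cre among the high 18S libraries alone (0.10, adjusted p 0.111), of which the 1 h group held 1, and in FosKO with only the groups compared in the fit (0.129).

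Itga4, which with Itgb1 binds VCAM-1, rose late. Its LysM-Cre libraries were at 12.32, 12.32 and 12.35 at 0 h, at 12.86, 12.74 and 12.68 at 1 h and at 13.67, 13.70 and 13.68 at 2 h. Its FosKO libraries were at 12.31, 12.50 and 12.71, at 12.66, 12.84 and 12.89 and at 13.94, 14.00 and 13.83. The 2 h libraries were above all others, and at 0 h the FosKO libraries were more spread than those of LysM-Cre and overlapped them. The 2 h response was 1.35 (2.55-fold) in LysM-Cre and 1.42 (2.67-fold) in FosKO, with limma adjusted p of 8.05e-12 and 3.36e-12. The 1 h response was 0.43 in LysM-Cre (0.000285). It was 0.29 in FosKO (0.00854), where the groups overlapped and the call was lost under quantile normalisation, with only the groups compared in the fit (0.0894), without FosKO 0 h replicate 1 (0.20, 0.0718) and without FosKO 1 h replicate 3 (0.24, 0.0516). The genotype difference at 0 h was 0.17 and was not called (0.111), but without FosKO 0 h replicate 1 it was 0.27 and called (0.0117). At 0.5 and 1 h it was 0.13 and 0.04, neither called. The high 18S set gave 0.18 and 0.01 for these times, and the low set 0.04 and -0.05. The 2 h difference of 0.24 was called (0.0213). That call was lost under quantile normalisation (0.05, adjusted p 0.635), without LysM-Cre 2 h replicate 1 (0.23, 0.0568), without FosKO 2 h replicate 1 (0.23, 0.057) and without FosKO 2 h replicate 2 (0.20, 0.0924).

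Itga5, the alpha subunit of the fibronectin receptor, rose early and levelled off by 1 h in LysM-Cre. There its libraries were at 12.61, 12.64 and 12.64 at 0 h, at 12.94, 12.99 and 13.02 at 0.5 h, at 14.04, 14.04 and 14.09 at 1 h and at 14.01, 14.02 and 13.99 at 2 h. In FosKO they were at 12.70, 12.73 and 12.74, at 12.95, 12.98 and 13.05, at 13.74, 13.76 and 13.88 and at 13.89, 13.97 and 13.98. The FosKO libraries were above those of LysM-Cre at 0 h, overlapped them at 0.5 h and were below them at 1 and 2 h. The response at 1 h was 1.42 (2.68-fold) in LysM-Cre and 1.07 (2.11-fold) in FosKO, and at 2 h it was 1.37 and 1.23. The difference between the 1 h responses was -0.35 (SE 0.05, limma adjusted p 0.000294). That between the 2 h responses was -0.15 (95% interval -0.25 to -0.04) and was not called (0.0515), though 11 of 35 fits called it, with -0.22 (0.00318) under quantile normalisation. The genotype difference at 1 h itself was -0.26 (7.08e-06), and it was -0.21 and -0.32 within the high and low 18S sets. At 0, 0.5 and 2 h it was 0.09, 0.01 and -0.06, none of them called, and at 0.5 h the sets differed in sign, at 0.05 in the high and -0.08 in the low one. The 0 h difference was called in 8 of 34 fits (range -0.04 to 0.10), and under quantile normalisation those at 0.5 and 2 h were -0.09 (0.0285) and -0.25 (3.37e-06).

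Itgav, the alpha subunit of the vitronectin receptor, combined a strong response with a genotype difference of like size at each time. In LysM-Cre its libraries were at 11.65, 11.67 and 11.76 at 0 h, at 11.71, 11.77 and 11.74 at 0.5 h, at 13.15, 13.11 and 13.09 at 1 h and at 13.87, 13.96 and 13.91 at 2 h. In FosKO they were at 11.34, 11.38 and 11.40, at 11.29, 11.30 and 11.21, at 12.62, 12.60 and 12.79 and at 13.49, 13.50 and 13.43. Every FosKO library was below every LysM-Cre library of its time. The genotype difference was -0.32, -0.47, -0.45 and -0.44 at 0, 0.5, 1 and 2 h (SE 0.04), with limma adjusted p of 4.32e-06, 2.05e-08, 6.17e-08 and 4.04e-08, and each was called in all 34 fits run. It was -0.49 and -0.45 within the high and low 18S sets at 0.5 h, and -0.45 and -0.48 at 1 h. LPS raised Itgav by 2.68-fold at 1 h and 4.65-fold at 2 h in LysM-Cre, and by 2.46-fold and 4.28-fold in FosKO. The difference between the responses was -0.15 (95% interval -0.27 to -0.03), -0.12 (-0.25 to -0.002) and -0.12 (-0.24 to 0.004) at 0.5, 1 and 2 h, and none was called. At 2 h it was -0.19 (0.0226) under quantile normalisation.

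Itgb3, the beta subunit that pairs with Itgav, moved against it in both comparisons. In LysM-Cre its libraries were at 8.37, 8.43 and 8.29 at 0 h, at 8.51, 8.40 and 8.33 at 0.5 h, at 8.49, 8.22 and 8.26 at 1 h and at 8.28, 7.88 and 7.86 at 2 h. In FosKO they were at 8.69, 8.94 and 8.78, at 8.53, 8.80 and 8.61, at 8.70, 8.76 and 8.82 and at 8.42, 8.61 and 8.41. The FosKO libraries were above those of LysM-Cre of the same time, and the lowest values of each genotype were at 2 h. The genotype difference was 0.44, 0.43 and 0.47 at 0, 1 and 2 h (SE 0.10), with limma adjusted p of 0.00169, 0.00222 and 0.000684, and 0.24 at 0.5 h, which was not called (0.0692) except in 4 of 34 fits. At 0.5 h the high 18S set gave 0.25 and the low set 0.20. At 1 h these were 0.29 and 0.45, and among the high 18S libraries alone, which hold 1 LysM-Cre library at that time, the difference was not called (0.184). The fit then takes that library to vary like the other groups. The 2 h response was -0.36 in LysM-Cre (0.00442) and -0.33 in FosKO (0.00789), and the latter was not called without FosKO 0 h replicate 2 (-0.26, 0.0515). Osteoclasts, which use this receptor, were checked by 6 markers. The 4 that passed the filter were Acp5, Ctsk, Ocstamp and Mmp9, and the linear levels of the list summed to 450.8 to 669.9 in LysM-Cre and to 592.2 to 995.4 in FosKO. Mmp9, which macrophages also express, was its highest gene, and Oscar was at 0.16 or below in every library. The part of these genes in the Itgb3 difference was not tested.

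Icam1, the ligand of LFA-1 and Mac-1, had the largest LPS response of the members. Its LysM-Cre libraries were at 11.86, 11.80 and 11.80 at 0 h, at 12.59, 12.75 and 12.74 at 0.5 h, at 14.54, 14.59 and 14.64 at 1 h and at 15.57, 15.63 and 15.64 at 2 h. Its FosKO libraries were at 12.09, 12.25 and 12.46, at 12.89, 12.88 and 13.23, at 14.42, 14.50 and 14.61 and at 15.48, 15.48 and 15.60. Within a genotype the times did not overlap. The FosKO libraries were above those of LysM-Cre at 0 and 0.5 h and overlapped them at 1 and 2 h. In LysM-Cre the response was 0.88 (1.84-fold) at 0.5 h, 2.77 (6.82-fold) at 1 h and 3.80 (13.9-fold) at 2 h. In FosKO it was 0.73 (1.66-fold), 2.24 (4.73-fold) and 3.25 (9.53-fold).

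The genotype difference of Icam1 was 0.45 at 0 h (SE 0.08, limma adjusted p 0.000274) and 0.30 at 0.5 h (0.00635). At 1 and 2 h it was -0.08 (95% interval -0.26 to 0.10) and -0.09 (-0.27 to 0.08), neither called. Under quantile normalisation they were -0.19 (0.0326) and -0.22 (0.0113), both called lower. The 0.5 h call was lost without FosKO 0.5 h replicate 3, the highest library of its group (0.19, adjusted p 0.0626). Within the high 18S set it was 0.38 at 0.5 h and 0.01 at 1 h, and within the low set it was 0.15 and -0.19. The response of the libraries labelled FosKO was smaller than that of LysM-Cre by 1.44-fold at 1 h (difference -0.53, limma adjusted p 0.0277) and by 1.46-fold at 2 h (-0.54, 0.00349). The 2 h difference lay between -0.63 and -0.45 and was called in all 35 fits. The 1 h difference was called in 25 of them. It was not called among the high 18S libraries alone (-0.44, adjusted p 0.449), where LysM-Cre at 1 h had 1 library, without a trend in the variance (0.0505), or when any of 8 libraries was left out, which were LysM-Cre 0 h replicates 2 and 3, LysM-Cre 1 h replicates 2 and 3, FosKO 0 h replicates 2 and 3 and FosKO 1 h replicates 1 and 2 (-0.53 to -0.43, adjusted p 0.0589 to 0.0844). These differences in response share the 0 h libraries in which the genotypes differed by 0.45.

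Itgam and Itgb1 also differed in response at 2 h, by 0.15 (limma adjusted p 0.0423) and 0.12 (0.0185). Under quantile normalisation these were 0.10 (0.351) and 0.09 (0.108), and neither was called. The call for Itgam was also lost with no filter on low values (0.0598), with only the groups compared in the fit (0.0564), without a trend in the variance (0.0566) and when any of 10 libraries was left out, which were LysM-Cre 0 h replicates 1 and 2, 0.5 h replicates 1 and 3, 1 h replicate 2 and 2 h replicates 2 and 3, FosKO 0 h replicate 2 and FosKO 2 h replicates 1 and 2 (0.13 to 0.16, adjusted p 0.0503 to 0.114). The call for Itgb1 was also lost with only the groups compared in the fit (0.0788), among the high 18S libraries (0.0544), without LysM-Cre 2 h replicate 1 (0.11, 0.0523) and without FosKO 2 h replicate 1 (0.11, 0.0537).

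Of the 18 other integrin genes listed, 17 had a row and 9 passed the filter. Between genotypes 0 were higher and 2 were lower at each time, beside 18% to 24.4% of all tested genes higher and 15.9% to 20.3% lower, and at 2 h the median of the 9 was -0.11, beside 0.004 for all genes. At 2 h they were Itgb7, the partner of Itga4 in lymphocyte homing, and Itga6, a laminin receptor subunit. Itgb7 had a mean of 9.47 in LysM-Cre and 8.91 in FosKO (difference -0.56, limma adjusted p 3.61e-06), and Itga6 had 12.28 and 11.80 (-0.48, 1.57e-09). After 2 h of LPS in LysM-Cre, 2 rose and 1 fell, beside 30.56% and 30.21% of all tested genes. Itgb8, another partner of Itgav, rose from 4.83 ± 0.13 to 8.91 ± 0.12 (SD, n = 3), a difference of 4.08 or 16.9-fold (limma adjusted p 8.6e-17). Itga9 rose by 0.22 (0.0429), and Itga6 fell by 0.26 (1.89e-06).

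Of 23 genes listed as ligands, 18 had a row and 14 passed the filter. Between genotypes at 2 h, 7 were higher and 2 lower, beside 24.4% and 20.3% of all tested genes, with a median of 0.19. Mfge8, a bridge between dying cells and Itgav integrins, was at 11.62 in LysM-Cre and 12.93 in FosKO at 2 h, a difference of 1.31 (limma adjusted p 1.19e-13). C3, whose fragment iC3b binds Mac-1, differed by 1.16 (3.99e-06), and Fn1, fibronectin, by 0.96 (3.86e-06). Vcam1, the ligand of the Itga4 receptor, differed by -0.67 (0.00716), and Icam5 by -0.49 (0.00348). Icam5 was low, with means of 4.43 in LysM-Cre and 3.94 in FosKO at 2 h. After 2 h of LPS in LysM-Cre, 10 rose and 0 fell, beside 30.56% and 30.21% of all tested genes, with a median of 0.78 beside -0.02 for all genes. Vcam1 rose from 8.06 ± 0.35 to 11.13 ± 0.13 (difference 3.07, 8.38-fold), C3 by 1.76 and Jam2, an endothelial junction protein, by 1.68. Jam2 was low, with means of 2.90 at 0 h and 4.59 at 2 h. In FosKO at 2 h, 8 ligands rose and 0 fell, beside 32.59% and 29.5%, with a median of 0.46. The response at 2 h differed between genotypes for 4 of the 14, 2 in each direction, beside 15% of all tested genes.

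Of 36 genes listed as adaptors and kinases of integrin signalling, 35 had a row and 33 passed the filter. Between genotypes at 2 h, 15 were higher and 4 lower, beside 24.4% and 20.3% of all tested genes, with a median of 0.11. The largest positive differences were those of Cyth1, a regulator of LFA-1 (0.53), Krit1, which binds the integrin cytoplasmic adaptor ICAP1 (0.39), and Lyn, a Src family kinase (0.37). The largest negative ones were those of the Src family kinase Fgr (-0.43) and the focal adhesion proteins Pxn (-0.37) and Parvb (-0.30). After 2 h of LPS in LysM-Cre, 17 rose and 4 fell, beside 30.56% and 30.21% of all tested genes, with a median of 0.15. Src rose from 8.41 ± 0.04 to 11.32 ± 0.06 (difference 2.91, 7.50-fold, limma adjusted p 8.05e-17), Syk by 1.10 and Pxn by 0.97. Rasgrp3, an activator of Ras family GTPases, fell by 1.01, and the focal adhesion kinases Ptk2b and Ptk2 fell by 0.27 and 0.19. The response at 2 h differed for 14 of the 33, 10 with a higher value in FosKO and 4 with a lower one, beside 15% of all tested genes.

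Over the 24 libraries, the genes whose pattern was most like that of Icam1 were Marcks (Pearson r 0.998), Tnfaip2 (0.996) and Nfkbib (0.996). Those most like Itgax were S100a11 (0.930), Pcdh7 (0.905) and Tns3 (0.904). The points share genotype and time within groups, and these correlations are a description without a test.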

How the data were processed

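RNA from BMDMs was sequenced in 24 libraries, 3 for each of 8 groups. According to the study's methods, the authors sequenced strand-specific TruSeq libraries from a single end on a HiSeq 2500. They mapped and counted reads with STAR 2.5.2a and RSEM 1.2.31 on mm10, and tested genes with DESeq2, given as 1.16.1 in the submitters' processing notes and as an earlier version in the methods. The methods name RefSeq genes, whereas the table has Ensembl identifiers. The deposited values are normalised log2 values that resemble a regularised log, in which differences of low genes would be understated. The methods give a typical read yield only, so depth per library is unknown and precision comes from the replicates alone.

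Groups were taken from the labels. The filter kept genes for which 2 to the power of the value reached 5 in 3 or more libraries. The 24 libraries entered a limma 3.58.1 fit (R 4.3.3) with 8 group means, variances moderated with a trend, and 16 residual degrees of freedom. From it 13 comparisons were drawn, with Benjamini-Hochberg adjustment over all 13901 genes. Intervals are 95% intervals of that fit, without adjustment. The script was tested on simulated data. The members, the lists and the other choices were made with earlier results of these data known. The genes named are the 10 members, up to 3 called genes in each direction per list at 2 h for FosKO against LysM-Cre and for LPS in LysM-Cre, and the 3 genes most correlated with Icam1 and with Itgax. Levels per kb used the union of protein-coding exons in GENCODE vM21. The alternatives were no filter, a floor of 50, a pseudocount of 1, quantile normalisation, median centring, only the groups compared, 2 forms of replicate block, no variance trend, the 18S set as a term, only the high 18S libraries, and each library left out in turn. Figures were drawn with Matplotlib 3.10.9. Protein sequences were not used here.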

Additional observations from a re-analysis of the deposited data

Results flagged for a closer look

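Members whose LPS response differed between the labelled genotypes by the test of the difference itself (limma, adjusted over all genes) are listed here, each as the FosKO response minus the LysM-Cre response. At 1 h they were Itga5 at -0.35 and Icam1 at -0.53. At 2 h they were Icam1 at -0.54, Itgam at 0.15 and Itgb1 at 0.12. Of all tested genes, 1.22% were called in this comparison at 1 h and 15% at 2 h.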

How the results depend on the processing

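The 10 members gave 130 differences over 13 comparisons, of which 63 were called, and the alternatives gave 4510 values for them. Of these, 4373 kept their call or their lack of one, 47 lost a call, 75 gained one and 15 changed sign with a call on at least one side. All 15 were under quantile normalisation. Among the 4373, 83 values that were called on neither side changed sign. Under quantile normalisation the FosKO against LysM-Cre difference was -0.094 for Itga5 at 0.5 h and -0.060 for Itgb1 at 2 h. The LysM-Cre LPS response was -0.13 for Itgb1 at 0.5 h, -0.21 for Itgam, -0.16 for Itgb2 and -0.19 for Itgb1 at 1 h, and -0.36 for Itgb2 and -0.31 for Itgb1 at 2 h. The FosKO response was -0.22 for Itgam, -0.21 for Itgb2 and -0.19 for Itgb1 at 1 h, and -0.39 for Itgam, -0.063 for Itgax, -0.45 for Itgb2 and -0.22 for Itgb1 at 2 h. Itgam at 2 h in LysM-Cre kept its sign but went from -0.01 to -0.49. The cause was not tested. Under it 8 members, in place of 5, were called between genotypes at 2 h, and 5, in place of 2, for LPS at 0.5 h in FosKO. With only the groups compared in the fit, 3 in place of 6 were called for LPS at 1 h in FosKO. For the difference in response at 1 h, 1 member in place of 2 was called without a variance trend and among the high 18S libraries. With each library left out in turn, that count was 1 to 2, and the count at 2 h was 1 to 4, with 1 without FosKO 2 h replicate 1. Of the alternatives, shares of all tested genes are given above for quantile normalisation only. The counts under the others therefore describe the members alone.

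Replicate numbers are shared by all groups. Over 36 pairs of same-numbered libraries from different groups of a genotype, the deviations had a correlation of -0.25 to 0.71 (median 0.06, with 12 pairs over 0.1). Over 72 pairs with different numbers it was -0.58 to 0.42 (median -0.03, with 4 pairs over 0.1). Same-numbered libraries of a genotype were thus somewhat more alike. The labels do not say what the numbers stand for, so the main fit was left without pairing and fits with blocks are given beside it. With the replicate block, 8, 7, 7 and 6 members were called between genotypes at 0, 0.5, 1 and 2 h, in place of 7, 6, 7 and 5. The block within genotype gave 8 and 9 called members for LPS at 1 and 2 h in LysM-Cre, in place of 6 and 7, and 8 and 10 in FosKO, in place of 6 and 10. The share of all tested genes called under the blocks is not given here, so these counts describe the members alone. No called member lost its call under the first block. Without read counts, depth set no limit that could be computed.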

Other observations

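Integrin ligands and signalling genes whose 2 h response differed between the labelled genotypes were looked up after their values were seen, and they are given as values. The 4 ligands were Tnc, the matrix protein tenascin C, at 1.24 (FosKO response minus LysM-Cre response, limma adjusted p 0.000588), Spp1, osteopontin, at 0.36 (0.0327), Thbs1, thrombospondin 1, at -0.76 (0.0128), and C3 at -0.71 (0.0336). Of the 14 adaptors and kinases, the kinase Src had the lowest value, at -0.86 (6.6e-05), and the focal adhesion protein Zyx the highest, at 0.46 (9.94e-06). Pxn, another focal adhesion protein, was at -0.40 (1.46e-06). Src had means of 8.41 in LysM-Cre and 8.98 in FosKO at 0 h, and of 11.32 and 11.03 at 2 h. C3 had means of 12.69 and 14.55 at 0 h, and of 14.44 and 15.60 at 2 h, higher in FosKO at both times. The differences in response of Src and C3 share these 0 h libraries, in which the genotypes already differed. At 1 h, 0 of 14 ligands and 1 of 33 adaptors and kinases were called, beside 1.22% of all tested genes. The gene was Dok1, an adaptor of tyrosine kinases, at 0.24 (limma adjusted p 0.0167).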
